A study of Mus musculus with 14 samples.

Results

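The VEGF system of the left ventricle was followed through 9 genes: the ligands Vegfa, Vegfb, Vegfc and Pgf, the receptor tyrosine kinases Flt1, Kdr and Flt4, and the neuropilins Nrp1 and Nrp2. They were taken by gene name from a count table of 49315 genes, and all 9 were among the 15292 genes with enough reads for a test. The rule itself uses no measured value, but the genes were chosen with earlier results of these data known. RNA was sequenced from the left ventricle of WT mice and of HCN4F mice, a knock-in line whose HCN4 pacemaker channel carries a gain-of-function substitution. Male mice had Sham surgery or transverse aortic constriction (TAC), a narrowing of the aorta that loads the left ventricle with pressure, at 10 to 12 weeks of age, and hearts were taken 5 weeks later. Used here were 4 WT-Sham, 4 HCN4F-Sham, 2 WT-TAC and 4 HCN4F-TAC libraries. The substitution changes a residue and not the amount of the channel, so the level of Hcn4 does not check the genotype.

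VEGF-A is made by cardiomyocytes and other cells short of oxygen and drives the growth of vessels through KDR (VEGFR2), the main signalling receptor of the blood endothelium. FLT1 (VEGFR1) binds VEGF-A, VEGF-B and placental growth factor and acts largely as a trap for VEGF-A, while VEGF-C signals through FLT4 (VEGFR3), the receptor of lymphatic endothelium. The neuropilins are co-receptors that also bind class 3 semaphorins. VEGF-B is abundant in heart muscle and other tissues rich in mitochondria.

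Depth was 22309914 to 35210939 counts per library, and mitochondrial genes took 13.9% to 23.1% of them. Levels are given as CPM, counts per 1000000 counts of a library, after TMM scaling for differences in library composition. The 8 cardiomyocyte markers summed to between 60403 and 84086 CPM in every library, and no marker of the cardiomyocyte or endothelial lists was at 0. Library HCN4F-TAC 2 stood apart in the atrial marker list, with a mean log2 CPM of 6.09 against 1.07 to 3.39 in the other libraries, and had the lowest mitochondrial share. Library HCN4F-Sham 1 had the lowest pan-endothelial marker level of all 14, a mean log2 CPM of 6.19, and HCN4F-Sham 2 the highest, 6.92. A gene passed where its adjusted p was under 0.05, and was called where its log2 fold change was in addition above 1 or below -1.

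The ligand gene Vegfa had its lowest group mean in HCN4F-Sham. In WT-Sham its level was 265, 274, 334 and 272 CPM, a mean of 286 ± 32.1 (SD, n = 4). In HCN4F-Sham it was 221, 142, 153 and 168 CPM, a mean of 171 ± 34.9 (n = 4). The 2 groups did not overlap, and the highest HCN4F-Sham library lay below the lowest WT-Sham library. In WT-TAC the level was 261 and 302 CPM, a mean of 282 ± 28.4 (n = 2), and in HCN4F-TAC it was 292, 333, 204 and 270 CPM, a mean of 275 ± 53.6 (n = 4). The HCN4F-Sham group was thus the low group, and the other groups shared 1 range apart from library HCN4F-TAC 3, which at 204 CPM lay below HCN4F-Sham 1.

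**Figure D1:**
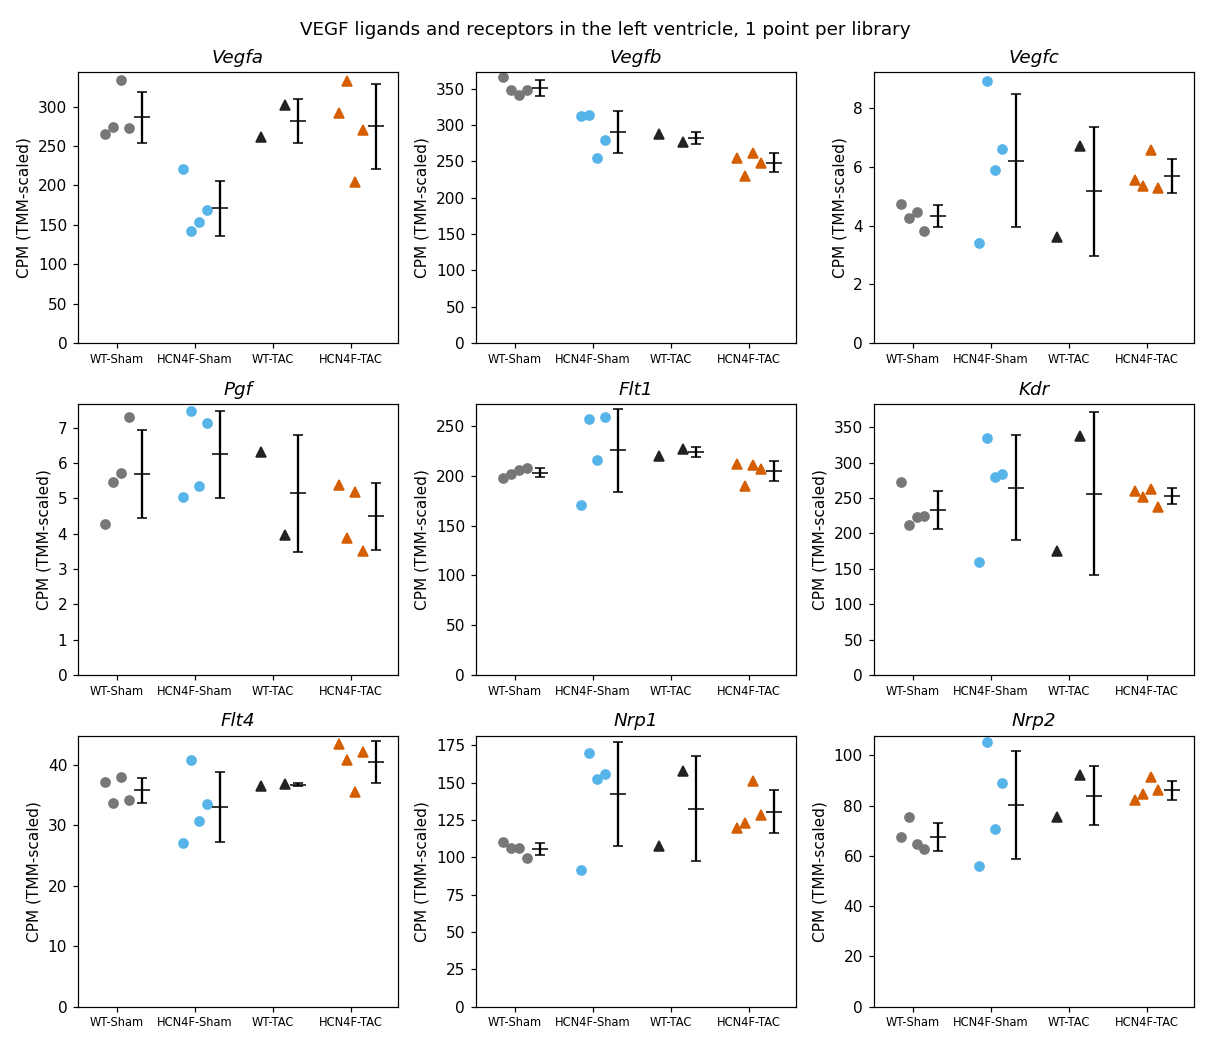
CPM of the 9 genes (y axis, from 0) in each library, by group on the x axis. Points are libraries, and the black dash with its bar is the group mean with the SD. Vegfa is at 142 to 221 CPM in HCN4F-Sham and at 265 to 334 CPM in WT-Sham, and Vegfb is at 341 to 366 CPM in WT-Sham and lower in every library of the other groups.

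Vegfa lies on chromosome 17 of GRCm38 at 46016993 to 46032369, on the minus strand, and Vegfb on chromosome 19 at 6982473 to 6987651, also on the minus strand. These ligands had the lowest p-values among the members, so the 250 bases before their RefSeq starts are shown (assembly GRCm38.p6). Capitals mark the core of the hypoxia response element, written as ACGTG or GCGTG and searched on both strands.
Vegfa, chr17:46032378-46032627, minus strand: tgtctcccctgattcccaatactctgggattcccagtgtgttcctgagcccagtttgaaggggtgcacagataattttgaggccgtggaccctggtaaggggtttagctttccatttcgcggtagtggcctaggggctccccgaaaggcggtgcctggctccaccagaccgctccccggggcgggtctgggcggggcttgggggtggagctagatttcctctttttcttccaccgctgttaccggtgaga
Vegfb, chr19:6987652-6987901, minus strand: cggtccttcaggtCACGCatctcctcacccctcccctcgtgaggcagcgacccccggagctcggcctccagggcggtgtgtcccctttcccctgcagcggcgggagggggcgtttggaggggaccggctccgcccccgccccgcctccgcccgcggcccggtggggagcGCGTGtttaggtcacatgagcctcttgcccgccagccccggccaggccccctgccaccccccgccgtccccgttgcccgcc
No core was found in this Vegfa window, and 2 were found in that of Vegfb, both of the GCGTG form. A further Vegfa window, at a start inside the gene, overlapped an exon and held 2 cores, 1 of each form. The reference table held 11 such windows for the 9 genes, of which 7 had a core, against 38.6% of all 32851 windows of this length. A match is a run of letters only, and elements farther from the start were not searched.

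Per kilobase of exon, a scale that allows for annotated exon length, Vegfb was the most abundant of the 9 genes at a mean of 183 ± 27.4 CPM per kb (SD over the 14 libraries of all groups). Vegfa followed at 58.2 ± 14.6, Kdr at 27.8 ± 5.70, Flt1 at 15.8 ± 1.74, Nrp1 at 12.98 ± 2.61, Nrp2 at 6.65 ± 1.15, Flt4 at 4.43 ± 0.547, Vegfc at 2.20 ± 0.616 and Pgf at 1.87 ± 0.441 CPM per kb. Most neighbours in this order kept it in all 14 libraries. Vegfa was above Kdr in 13 of 14, the exception being HCN4F-Sham 2, and Vegfc was above Pgf in only 9 of 14, so these last 2 levels did not differ beyond their spread. The low genes rested on 88 to 235 counts per library for Vegfc and 86 to 236 for Pgf, against 3103 to 10539 for Vegfa. Exon lengths were the union of the exons of all annotated transcripts in GENCODE release 21. The transcripts present may be shorter, so the order of the genes depends on this choice of length. The only annotated gene sharing exon bases with a member is the microRNA gene Mir1903 within Nrp1, over 80 bases.

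**Figure D2:**
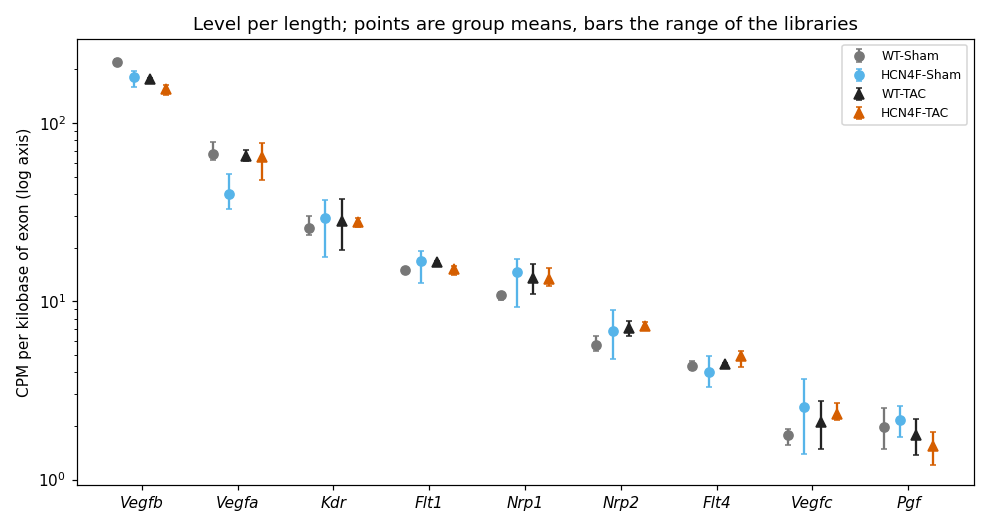
CPM per kilobase of exon (log axis) for the 9 genes, ordered by their mean over the 14 libraries. Points are group means and bars run from the lowest to the highest library of the group. The ligands stand at both ends of the order, Vegfb and Vegfa above all receptors and Vegfc and Pgf below them.

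In HCN4F mice, Vegfa rose after TAC and was the single member of the 9 to pass. Its log2 fold change was 0.68 (SE 0.15), or 1.61-fold, from 171 to 275 CPM, with an adjusted p of 0.00758 by edgeR (quasi-likelihood test, Benjamini-Hochberg adjustment over all tested genes). In this comparison 13.6% of all tested genes passed, so 1 of 9 is close to the background. The rise passed in all 22 alternative settings, with log2 values of 0.58 to 0.83. Without HCN4F-TAC 2, the library with high atrial markers, it was 0.58 (adjusted p = 0.0255 in edgeR). In the same comparison 5 of 5 activated fibroblast markers rose, and 3 of 8 cardiomyocyte markers and 4 of 5 nerve and Schwann cell markers fell. Of 3 atrial markers 1 rose, Nppa, which the study counts in the fetal gene program and reports higher after TAC in both genotypes. The part of these markers in the level of Vegfa was not tested. The groups overlapped through HCN4F-TAC 3 and HCN4F-Sham 1, and no member was free of overlap, against 15.1% of all genes.

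The other ligands were not higher after TAC in HCN4F hearts. Vegfb was 313, 314, 255 and 279 CPM in HCN4F-Sham and 254, 230, 261 and 248 CPM in HCN4F-TAC. Its log2 fold change was -0.22 (SE 0.07), with an adjusted p of 0.0546 by edgeR, just outside the threshold. Without HCN4F-Sham 3 it passed at -0.29 (adjusted p = 0.0126 in edgeR), and without HCN4F-TAC 3 at -0.25 (adjusted p = 0.0487 in edgeR), and in DESeq2 on all groups it passed too (adjusted p = 0.0254). It passed in 4 of 22 alternative settings in all, and not in fits of the compared groups alone (adjusted p = 0.144 in edgeR and 0.134 in DESeq2). Pgf, placental growth factor, had a log2 fold change of -0.48 (SE 0.20, adjusted p = 0.127 in edgeR), from a mean of 6.25 ± 1.23 to 4.49 ± 0.941 CPM (SD, 4 libraries each), and Vegfc one of -0.12 (SE 0.23, adjusted p = 0.776 in edgeR).

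Among the receptors, Flt4 was 27.1, 40.8, 30.8 and 33.5 CPM in HCN4F-Sham and 43.4, 40.9, 35.4 and 42.2 CPM in HCN4F-TAC. Its log2 fold change of 0.29 (SE 0.10) had an adjusted p of 0.0652 by edgeR. It passed without HCN4F-Sham 2, at 0.41 (adjusted p = 0.00747 in edgeR), and without HCN4F-TAC 3, at 0.35 (adjusted p = 0.0303 in edgeR), and in DESeq2 on all groups (adjusted p = 0.0432). In all it passed in 4 of 22 settings, and not in fits of the compared groups alone (adjusted p = 0.169 in edgeR and 0.13 in DESeq2). Kdr, at -0.06 (SE 0.21), and Nrp1, at -0.12 (SE 0.16), did not pass, nor did Nrp2 at 0.10 (SE 0.14). Flt1 was at -0.14 (SE 0.10) and passed only when HCN4F-Sham 1 was left out, at -0.25 (adjusted p = 0.0329 in edgeR). The intervals of these log2 values reach from -0.53 to 0.40 for Kdr and from -0.36 to 0.07 for Flt1, so changes of that size cannot be set aside. No member was called, against 2.75% of all tested genes.

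**Figure D3:**
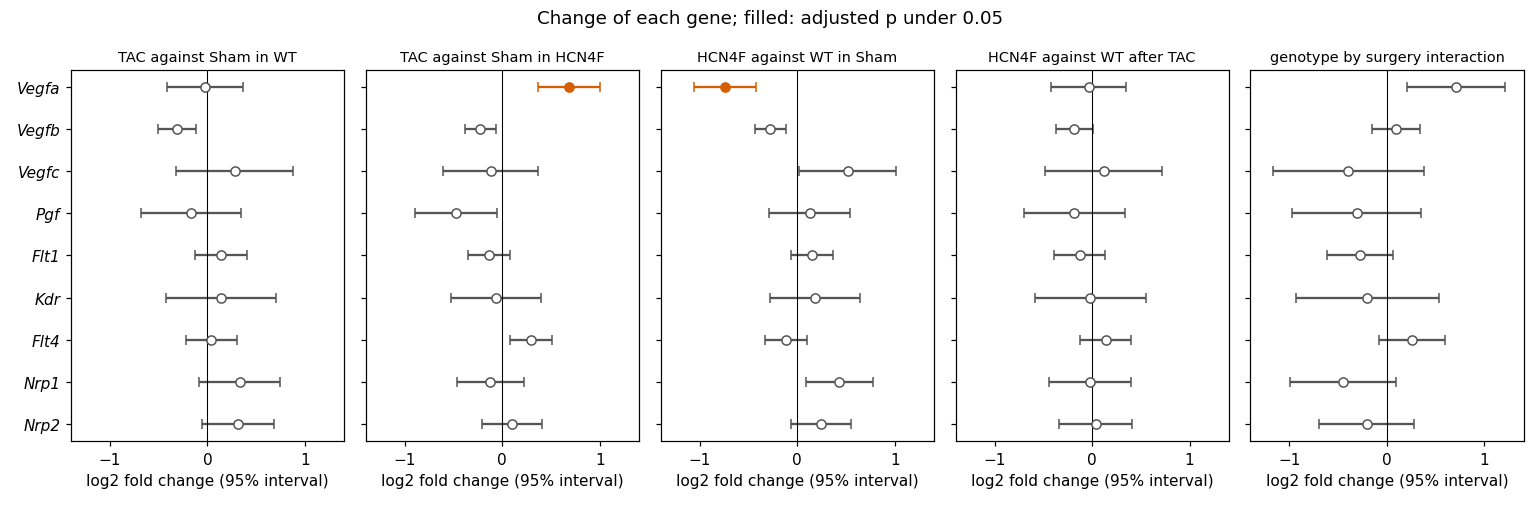
Log2 fold change of each gene (x axis) with its 95% interval in the 5 comparisons, all from 1 edgeR fit. Filled orange points have an adjusted p under 0.05: Vegfa at 0.68 for TAC against Sham in HCN4F and at -0.74 for HCN4F against WT in Sham.

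In WT mice, no TAC difference in Vegfa was detectable within the spread of the libraries, with a log2 fold change of -0.02 (SE 0.18) and a 95% interval from -0.41 to 0.36. None of the 9 genes passed in edgeR's quasi-likelihood test, against 4.54% of all genes, and none was called, against 0.706%. At an unadjusted p under 0.05 there was 1 member, Vegfb, against 3371 of all 15292 genes. DESeq2 on all groups also passed Vegfb, with 9.71% of all genes passing. Vegfb was 366, 349, 341 and 348 CPM in WT-Sham and 288 and 276 CPM in WT-TAC. Both WT-TAC libraries lay below every WT-Sham library, a log2 fold change of -0.32 (SE 0.09, adjusted p = 0.0588 in edgeR). It passed in 7 of 22 alternative settings, among them those without HCN4F-Sham 1, 2 or 3, which share the estimate of the spread (adjusted p = 0.0436, 0.0391 and 0.0329 in edgeR). In fits of the WT groups alone Vegfb passed as well (adjusted p = 0.0113 in edgeR and 0.00141 in DESeq2). Nrp2 passed in these fits too (adjusted p = 0.0445 in edgeR and 0.0199 in DESeq2), and Nrp1 in that of DESeq2 (adjusted p = 0.0353). Of all genes, 13.6% passed in this edgeR fit and 14.8% in this DESeq2 fit.

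The 2 WT-TAC libraries differed in Kdr, Nrp1, Vegfc and Pgf and were close in Flt1 and Flt4. Vegfc was 3.61 and 6.73 CPM (log2 fold change against WT-Sham 0.28, SE 0.28), and Pgf was 6.33 and 3.98 CPM (-0.17, SE 0.24). Kdr was 175 CPM in WT-TAC 2 and 338 CPM in WT-TAC 3, outside the 212 to 273 CPM of WT-Sham on either side. Its log2 fold change of 0.14 (SE 0.26) became -0.42 without WT-TAC 3 and 0.54 without WT-TAC 2. Nrp1 was 108 and 157 CPM in WT-TAC against 99.8 to 109.9 CPM in WT-Sham, at a log2 fold change of 0.33 (SE 0.20, adjusted p = 0.344 in edgeR), which was 0.03 without WT-TAC 3 and 0.58 without WT-TAC 2. Nrp2, at 75.6 and 92.1 CPM against 62.6 to 75.3 CPM, and Flt1, at 220 and 227 CPM against 197 to 208 CPM, were higher in both WT-TAC libraries than in any WT-Sham library. With Vegfb these made 3 of 9 members without overlap, against 39.2% of all genes. Neither Nrp2 (0.31, SE 0.17, and 0.16 to 0.45 with 1 of the WT-TAC libraries left out) nor Flt1 (0.14, SE 0.12) passed in the fit of all groups.

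Between genotypes in Sham, Vegfa was the single member to pass, and it was lower in HCN4F. Its log2 fold change was -0.74 (SE 0.15), or 1.67-fold lower, with an adjusted p of 0.0441 by edgeR (quasi-likelihood test), in a comparison in which 0.471% of all genes passed. This call stood close to the threshold and was made in 9 of 22 alternative settings. It was lost when any of WT-Sham 1, 2, 3 or 4 was left out (adjusted p = 0.0643, 0.102, 0.127 and 0.108 in edgeR), and without HCN4F-Sham 2, 3 or 4 (adjusted p = 0.0898, 0.123 and 0.122 in edgeR). It was also lost without WT-TAC 2 or 3 and without HCN4F-TAC 1 or 4, which enter only through the common spread (adjusted p = 0.0521, 0.0519, 0.0504 and 0.0518 in edgeR). With no filter on low counts the adjusted p was 0.106 in edgeR. The fold change itself stayed between -0.89 and -0.66 in all 22 settings, and DESeq2 on all groups gave an adjusted p of 0.000265.

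Vegfb also had a lower mean in the Sham hearts of HCN4F mice, with 4 libraries at 255 to 314 CPM against 4 at 341 to 366 CPM. Its log2 fold change was -0.27 (SE 0.07), with an adjusted p of 0.104 by edgeR, and it passed in DESeq2 on all groups (adjusted p = 0.00989). Vegfa and Vegfb were the 2 of 9 members whose Sham groups did not overlap, against 8.56% of all genes. No member was called, against 0.209% of all genes. This comparison and that of TAC with Sham in HCN4F share the HCN4F-Sham libraries, so the low Vegfa in them enters both.

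Vegfc and the neuropilin Nrp1 had higher means in HCN4F-Sham, but these rested on which libraries were used. Vegfc was 3.43, 8.95, 5.89 and 6.61 CPM in HCN4F-Sham against 3.82 to 4.73 CPM in WT-Sham, a log2 fold change of 0.52 (SE 0.23, adjusted p = 0.307 in edgeR). Nrp1 was 91.2, 169.8, 153 and 156 CPM against 99.8 to 109.9 CPM, a log2 fold change of 0.43 (SE 0.16, adjusted p = 0.228 in edgeR). In both genes HCN4F-Sham 1 lay below every WT-Sham library and the other 3 lay above every one. Without HCN4F-Sham 1, 3.72% of all genes passed (567 genes, against 72 in the full fit) and 4 of the 9 members passed in edgeR's quasi-likelihood test: Vegfa at -0.89 (adjusted p = 0.00546), Vegfb at -0.31 (adjusted p = 0.0348), Vegfc at 0.72 (adjusted p = 0.0456) and Nrp1 at 0.59 (adjusted p = 0.0118). HCN4F-Sham 1 was the lowest of the 14 libraries for Vegfc, Flt1, Kdr, Flt4, Nrp1 and Nrp2, and the highest of its group for Vegfa. Without HCN4F-Sham 2, the library with the highest endothelial markers, Vegfc was at 0.30 (adjusted p = 0.527 in edgeR), Nrp1 at 0.34 (adjusted p = 0.372 in edgeR), Nrp2 at 0.09 and Kdr at 0.05. The part of the endothelial content of these libraries in the values was not tested. In bulk tissue, fewer cells of a type and less RNA per cell cannot be told apart.

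Flt1 was 171, 257, 216 and 260 CPM in HCN4F-Sham against 197 to 208 CPM in WT-Sham. Kdr was 160.0, 335, 279.5 and 284 CPM in HCN4F-Sham against 212 to 273 CPM. The WT-Sham libraries were close together, with an SD of 4.59 CPM for Flt1, while the HCN4F-Sham libraries spread on both sides of them, with an SD of 41.9 CPM. Neither receptor passed, at log2 fold changes of 0.15 (SE 0.10) and 0.18 (SE 0.21). Flt4, at -0.12 (SE 0.10), Nrp2, at 0.25 (SE 0.14), and Pgf, at 0.13 (SE 0.20), did not pass either.

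After TAC, the genotypes did not differ detectably in any of the 9 genes. None passed in edgeR's quasi-likelihood test, against 0.111% of all genes, none was called, against 0.0719%, none had an unadjusted p under 0.05, and none passed in DESeq2 on all groups. For Vegfa the log2 fold change was -0.04 (SE 0.18), with a 95% interval from -0.42 to 0.35. Vegfb was lower in all 4 HCN4F-TAC libraries than in both WT-TAC libraries, at -0.18 (SE 0.09, adjusted p = 0.422 in edgeR), and Flt1 likewise, at -0.13 (SE 0.12, adjusted p = 0.731 in edgeR). These were 2 of 9 members without overlap, against 22.2% of all genes.

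Whether TAC acted differently in the genotypes was tested as an interaction. For Vegfa the TAC effect was larger in HCN4F by 0.71 on the log2 scale (SE 0.24, unadjusted p = 0.00943, adjusted p = 0.456 in edgeR's quasi-likelihood test). It did not pass, and over the 20 settings in which it was refitted it lay between 0.59 and 0.85 with adjusted p of 0.0866 to 0.728. No gene passed, a share of 0%, although 1418 genes had an unadjusted p under 0.05 in edgeR and DESeq2 on all groups passed 37. Among the members Vegfa was the 1 with an unadjusted p under 0.05, and DESeq2 passed none. The other interactions ran from -0.45 (Nrp1, SE 0.25) to 0.26 (Flt4, SE 0.16).

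The counts of Vegfa and Vegfb can be set against each other within a library, which takes out the scaling. Vegfa was 0.451 to 0.705 times Vegfb in HCN4F-Sham, 0.723 to 0.980 times in WT-Sham, 0.909 to 1.09 times in WT-TAC and 0.783 to 1.44 times in HCN4F-TAC. All HCN4F-Sham libraries were below all others in this ratio. The ratio of Flt1 to Kdr showed no such order, with 0.723 to 0.950 in WT-Sham, 0.768 to 1.07 in HCN4F-Sham, 0.673 and 1.26 in WT-TAC and 0.753 to 0.874 in HCN4F-TAC.

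Across the 14 libraries Vegfa ran with the hypoxia target list. Its Pearson's r with the mean log2 CPM of 24 hypoxia targets, Vegfa itself not among them, was 0.862, and 0.791 after the group means were taken off. With the hypoxia sensing genes the same values were 0.240 and -0.04. Of 12555 genes, those most like Vegfa were Stx7, a syntaxin of the endosome (r = 0.939), P4ha1, a collagen prolyl hydroxylase and hypoxia target (r = 0.926), and Ppp1r3c, a glycogen-targeting subunit of protein phosphatase 1 (r = 0.919). With the group means taken off, the most like were Sec22b (r = 0.951), Rrp12 (r = 0.936) and Cct8 (r = 0.913), and P4ha1 was at 0.787. These values describe libraries from 4 groups that share their scaling, and HCN4F-TAC 2 and HCN4F-Sham 2 are the ends of the range on the hypoxia list. P4ha1 had group means of 104 ± 21.9 CPM (SD) in WT-Sham, 64.1 ± 9.62 in HCN4F-Sham, 106 ± 1.59 in WT-TAC and 109 ± 23.0 in HCN4F-TAC. Its fall in HCN4F-Sham did not pass (log2 fold change -0.70, adjusted p = 0.0758 in edgeR), and its rise after TAC in HCN4F did (0.76, adjusted p = 0.00771 in edgeR).

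**Figure D4:**
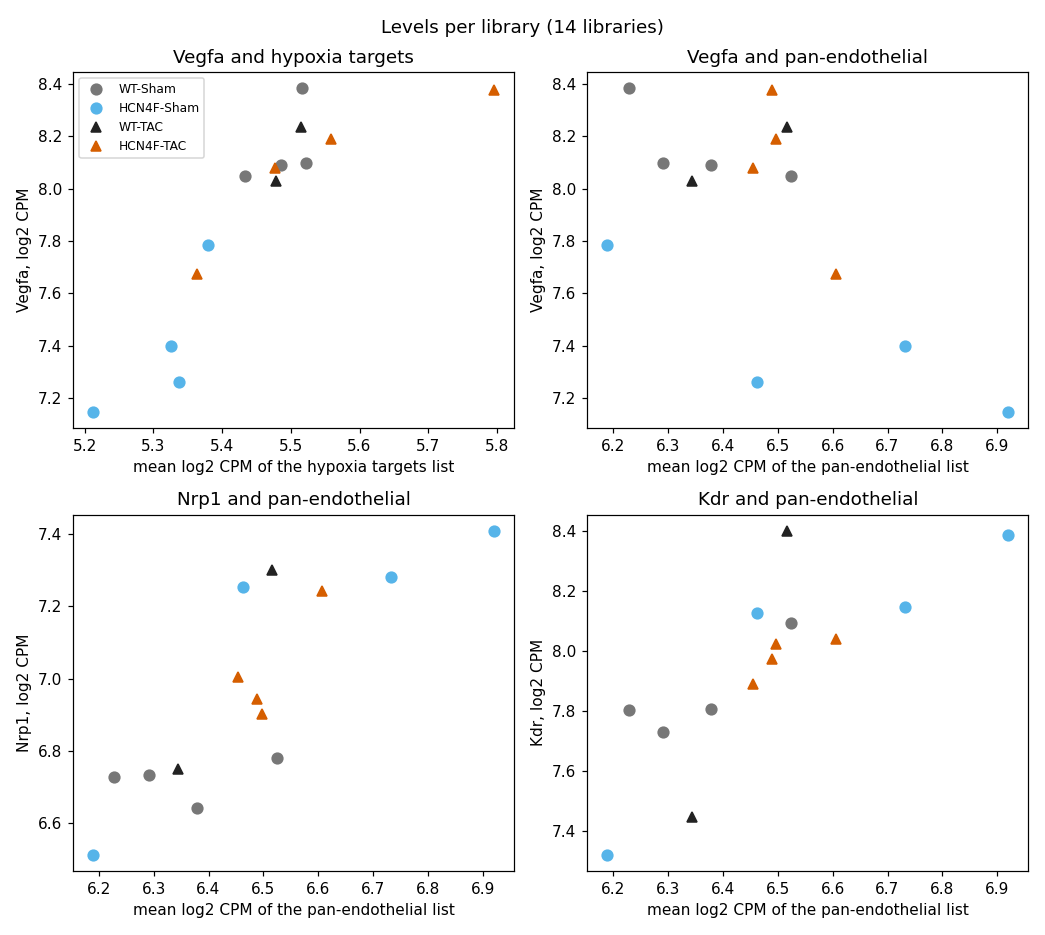
Log2 CPM of Vegfa, Nrp1 and Kdr (y axes) against the mean log2 CPM of the hypoxia target list or of the pan-endothelial list (x axes), 1 point per library, coloured by group. Vegfa rises with the hypoxia targets (r = 0.862) and runs against the endothelial markers (r = -0.606), while Nrp1 and Kdr rise with the endothelial markers (r = 0.832 and 0.796).

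Of the 24 hypoxia targets, 4 rose after TAC in HCN4F and none fell in edgeR's quasi-likelihood test, close to the 13.6% of all genes that passed there: P4ha1, Ero1l, an oxidase of disulfide bond formation (0.47, adjusted p = 0.00957), P4ha2 (0.28, adjusted p = 0.0306) and the glucose transporter gene Slc2a1 (0.50, adjusted p = 0.0482). The list's median was 0.15, against -0.01 over all genes. In WT, where 4.54% of all genes passed, 1 of the 24 fell, Ankrd37, at -1.16 (adjusted p = 0.0457 in edgeR), and the median was -0.02, as over all genes. Between the Sham groups, where 0.471% of all genes passed, 1 of the 24 did, namely P4ha2, lower in HCN4F at -0.43 (adjusted p = 0.0282 in edgeR), 17 of the 24 had values below 0, and the median was -0.14 against 0.00. Hif1a, the oxygen-regulated transcription factor, rose after TAC in WT (0.63, adjusted p = 0.00634 in edgeR) and in HCN4F (0.47, adjusted p = 0.00214 in edgeR). Of the 9 hypoxia sensing genes tested, 3 rose in WT, the others being its partner Arnt (0.43, adjusted p = 0.0146 in edgeR) and Hif1an (0.35, adjusted p = 0.0457 in edgeR), a hydroxylase that inhibits HIF. In HCN4F hearts 1 of the 9 rose, against shares of all genes passing of 4.54% in WT and 13.6% in HCN4F.

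The 3 genes most like Vegfb over the libraries were Uqcrc1, a subunit of respiratory complex III (r = 0.972), Sdhb, a subunit of succinate dehydrogenase (r = 0.969), and Samm50, of the outer membrane sorting machinery (r = 0.968). With the group means taken off, the first was Thap4 (r = 0.972). Its r with the 8 cardiomyocyte markers was 0.779 over all libraries and 0.333 within groups. These markers themselves moved with TAC, where 4.54% of all genes passed in WT and 13.6% in HCN4F. In WT 2 of the 8 fell, the troponin genes Tnnt2 (-0.39, adjusted p = 0.0257 in edgeR) and Tnni3 (-0.52, adjusted p = 0.0427 in edgeR). In HCN4F 3 of these markers fell and 1, Actc1, rose (0.29, adjusted p = 0.0359 in edgeR). Their summed level was 81066 to 84086 CPM in WT-Sham, 73054 to 80996 in HCN4F-Sham, 80288 and 80482 in WT-TAC, and 60403 to 71335 in HCN4F-TAC. Their part in the Vegfb differences was not tested.

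Vegfc, the neuropilins, Kdr and Flt1 varied in like manner from library to library. The r of Vegfc was 0.947 with Nrp1, 0.904 with Kdr, 0.856 with Nrp2 and 0.706 with Flt1, and that of Nrp1 was 0.844 with Kdr, 0.834 with Nrp2 and 0.752 with Flt1. Nrp2 had an r of 0.703 with Kdr and 0.70 with Flt1, and Flt1 and Kdr one of 0.645. With the 12 pan-endothelial markers r was 0.887 for Vegfc, 0.832 for Nrp1, 0.813 for Nrp2, 0.796 for Kdr, 0.767 for Flt1 and 0.385 for Flt4. The Ras pathway inhibitor gene Spred2 was among the 3 genes most like Vegfc (r = 0.941), Nrp1 (r = 0.950) and Nrp2 (r = 0.928), and Gimap6 among those most like Vegfc (r = 0.932) and Kdr (r = 0.937). For Kdr the first was Nos2 (r = 0.944), for Nrp1 Arhgap18 (r = 0.952), for Flt1 Itpkb (r = 0.896), for Flt4 Myo1e (r = 0.873) and for Pgf Ssbp3 (r = 0.853). These correlations describe 14 libraries and carry no test.

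None of the 12 pan-endothelial markers passed in any comparison in edgeR's quasi-likelihood test. At an unadjusted p under 0.05 there was 1 after TAC in WT, 0 after TAC in HCN4F, 2 between the Sham groups, 0 between the TAC groups and 1 in the interaction. Of all 15292 genes, 3371, 4323, 2323, 1904 and 1418 had such a p in these comparisons. DESeq2 on all groups passed 1, 0, 1, 0 and 0 of the markers, and 9.71%, 15.4%, 2.52%, 1.5% and 0.284% of all genes. The summed level of the pan-endothelial markers was 1217 to 1443 CPM in WT-Sham, 1103 to 1871 CPM in HCN4F-Sham, 1274 and 1396 CPM in WT-TAC, and 1326 to 1474 CPM in HCN4F-TAC. Of the 7 capillary endothelial markers, 6 had values below 0 for TAC in HCN4F, with a median of -0.33 against -0.01 over all genes. Of the 7, 1 fell, the fatty acid binding protein gene Fabp4 (-0.49, adjusted p = 0.0498 in edgeR), close to the 13.6% of all genes that passed there. Between the Sham groups 7 of 7 had values above 0 in HCN4F, with a median of 0.20 against 0.00. None of the 7 passed there in edgeR's quasi-likelihood test, against 0.471% of all genes, with 1 at an unadjusted p under 0.05 and 1 in DESeq2. The r of Vegfa with this list was -0.725 over the libraries and -0.494 within groups. The summed capillary level was 1958 to 2168 CPM in WT-Sham, 2033 to 2579 CPM in HCN4F-Sham, 2042 and 2080 CPM in WT-TAC, and 1786 to 2153 CPM in HCN4F-TAC, and its part in the level of Vegfa was not tested. Against the pan-endothelial markers, the levels of Flt1, Kdr and Nrp1 were compared as log2 CPM less the mean of the markers. The 12 differences ran from -0.21, for Flt1 between the TAC groups, to 0.23, for Nrp1 with TAC in WT. In the two-sided exact permutation test the adjusted p was 0.823 to 0.867 over 12 tests. With 4 libraries against 4 the smallest p this test can give is 0.0286, with 2 against 4 it is 0.0667, and after adjustment over the 12 tests it is 0.0571, so no difference could have passed.

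Flt4, the receptor of lymphatic vessels, had a lower r with the 6 lymphatic markers (0.246) than with the 7 fibroblast markers (0.687). With the group means taken off these values were -0.155 and 0.686, and that with the pan-endothelial markers was 0.668. In HCN4F hearts, where 13.6% of all genes passed, 2 of the 6 lymphatic markers rose after TAC. They were the integrin gene Itga9 (1.10, adjusted p = 5.86e-05 in edgeR) and Pdpn (0.66, adjusted p = 0.0150 in edgeR), both also made by other cells. The other 4 of the 6 had values below 0, and the list's median was -0.08 against -0.01 over all genes. Itga9 rose in WT as well (0.81, adjusted p = 0.0104 in edgeR), where 4.54% of all genes passed. Prox1, another gene of the list, named after its values were seen, was at -0.09 in HCN4F and 0.04 in WT. Of the fibroblast list 3 of 7 rose in HCN4F and 0 fell, and of 5 markers of activated fibroblasts 5 rose, against 13.6% of all genes passing. In WT 0 of the 7 rose and 1 fell, and 0 of the 5 passed, against 4.54% of all genes. The summed level of the activated fibroblast markers was 127 to 378 CPM in HCN4F-TAC and 60.9 to 99.4 CPM in HCN4F-Sham. Their part in the level of Flt4 was not tested.

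The genes that act with the 9 members are given by list, each count to be read against the 13.6% of all genes that passed for TAC in HCN4F and the 4.54% in WT. Whether a list differed between the genotypes was not tested. Of 6 further family members and modifiers, Thbs1, an inhibitor of vessel growth, rose after TAC in HCN4F (2.53, adjusted p = 0.000815 in edgeR) and in WT (1.82, adjusted p = 0.0296 in edgeR). Thbs2 (-0.58, adjusted p = 0.0163 in edgeR) and Ccbe1, which is needed for the processing of VEGF-C (-1.35, adjusted p = 0.0129 in edgeR), fell in HCN4F. Vegfd had group means of 1.66 to 2.53 CPM and passed nowhere. Of 28 genes of VEGF receptor signalling 6 rose in HCN4F and 0 fell, with a median of 0.08 in HCN4F and 0.08 in WT, among them the kinase genes Prkca (0.53, adjusted p = 0.00114 in edgeR) and Sphk1 (1.20, adjusted p = 0.00206 in edgeR), the calcineurin regulator Rcan1 (1.85, adjusted p = 0.00316 in edgeR) and the small heat shock protein gene Hspb1 (0.72, adjusted p = 0.00477 in edgeR). In WT 0 of these 28 passed in edgeR's quasi-likelihood test, with 8 at an unadjusted p under 0.05, against 3371 of all 15292 genes. DESeq2 passed 1 of them, against 9.71% of all genes. The signalling genes are not specific to VEGF or to endothelium, and cardiomyocytes make several of them.

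Of 12 semaphorin 3 and plexin genes, whose proteins share the neuropilins with VEGF, 2 rose after TAC in HCN4F, Sema3f (0.73, adjusted p = 0.00364 in edgeR) and Sema3d (0.76, adjusted p = 0.0184 in edgeR). This count is close to the share of all genes. In WT 0 passed in edgeR's quasi-likelihood test, with 2 at an unadjusted p under 0.05, against 3371 of all 15292 genes. DESeq2 passed 1, against 9.71% of all genes, and the list's median was 0.24 in WT and 0.19 in HCN4F. Of 16 Notch and tip cell genes, Esm1, a tip cell gene induced by VEGF-A, rose in HCN4F (1.00, adjusted p = 0.0284 in edgeR), Hey2, a Notch target, fell (-0.56, adjusted p = 0.0144 in edgeR), and Dll1 fell in WT (-0.59, adjusted p = 0.0490 in edgeR). None of the 8 angiopoietin and Tie genes passed in any comparison in edgeR's quasi-likelihood test or in DESeq2. After TAC in HCN4F 1 had an unadjusted p under 0.05, against 4323 of all 15292 genes. Between the TAC groups 0 genes of these lists passed in edgeR's quasi-likelihood test or in DESeq2. Per list 0 to 2 had an unadjusted p under 0.05 there, against 1904 of all 15292 genes.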

How the data were processed

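Left ventricular mRNA, selected by poly(A), was sequenced in 14 libraries, assigned to groups by their labels. The authors deposited raw counts of reads per gene, without normalization. The labels name the build GRCm38, while the aligner, counter, annotation and use of strand are not given in the sources used here. The study describes 16 samples, and 2 further count columns, whose names carry the WT and TAC tags but match no single sample used here, were left out, so WT-TAC has 2 libraries. Genes were kept with filterByExpr and fitted in edgeR 4.0.16 (R 4.3.3) with TMM scaling, 1 mean per group over all 14 libraries and robust quasi-likelihood tests, adjusted over 15292 genes. DESeq2, which the authors used, was an alternative, here in version 1.42.0. Log2 levels per library used a prior count of 2. Positions came from GENCODE release 21, which held 99.5% of the gene IDs, and promoter windows from RefSeq. Receptors relative to markers were compared by exact permutation tests. The members and lists were chosen with earlier results of these data known. All 9 members were named, with the 3 genes of mean CPM of at least 1 most like each by Pearson's r, and at most 4 passing genes of each list by lowest p, while Prox1 and Vegfd were named after their values were seen. The study calls its replicates biological, and each library has its own number in the labels. No 2 libraries of a group differed by as little as counting noise. The steps were tested on simulated data, and figures were drawn with matplotlib 3.10.9.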

Additional observations from a re-analysis of the deposited data

Results flagged for a closer look

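The Vegfa level of WT-Sham 3, 334.1 CPM, stood far from those of the other 3 libraries of its group, 264.7 to 273.8 CPM. Its gap to the nearest of them was 0.869 of the group's whole range (Dixon's test). It was the 1 such case among 36 groups tested, and chance gives about 1 in 20. The Sham difference in Vegfa was -0.66 on the log2 scale without this library, with an adjusted p of 0.127 by edgeR.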

How the results depend on the processing

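The number of the 9 VEGF genes that passed depended on the setting in 3 comparisons. For TAC in WT it was 0 in the reported fit, 1 with DESeq2 on all groups, 3 with DESeq2 on the compared groups (Vegfb, Nrp1 and Nrp2), 2 with edgeR on the compared groups and 1 with a mean CPM filter, and 0 to 1 when 1 library was left out. The shares of all genes passing in these fits were 4.54%, 9.71%, 14.8%, 13.6%, 6.03% and 0.0695% to 6.64%. For TAC in HCN4F it was 1, with 3 under DESeq2 on all groups, 2 with no filter and 2 with the mean CPM filter, and 1 to 3 with 1 library left out, where 13.6%, 15.4%, 6.79%, 16.1% and 8.73% to 15.6% of all genes passed. Between the Sham groups it was 1, with 2 under either DESeq2 fit, 0 with no filter, and 0 to 4 with 1 library left out, where 0.471%, 2.52%, 2.64%, 0.735% and 0.125% to 3.72% of all genes passed. With a log2 fold change above 1 or below -1 also required, it was 0 in both comparisons of HCN4F-Sham. The cause was not tested. Samples with the same replicate number did not deviate together: of 18 such pairs 2 had a correlation over 0.1, and 5 of 14 libraries correlated best with their own number. With the replicate block, 0 members passed between the Sham groups, where Vegfa was at -0.76 (adjusted p = 0.0877 in edgeR), and 1977 genes passed for TAC in HCN4F against 2081, 225 for TAC in WT against 694, 41 between the Sham groups against 72, and 8 between the TAC groups against 17. The block turned the sign of Vegfa for TAC in WT to 0.018, and between the TAC groups that of Kdr to 0.068 and that of Nrp1 to 0.081.

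Other changes of sign were of values near 0, rested on the 2 WT-TAC libraries, or came for TAC in HCN4F with 1 library left out. Vegfa for TAC in WT was 0.000244 with DESeq2 on the compared groups and 0.0026 with no filter, and -0.13 to 0.077 with 1 library left out. With 1 library left out, for TAC in WT, Vegfc ran from -0.26 to 0.64, Pgf from -0.52 to 0.15 and Kdr from -0.42 to 0.54. For TAC in HCN4F, Vegfc ran from -0.32 to 0.095, Kdr from -0.24 to 0.070 and Nrp2 from -0.036 to 0.26. Between the TAC groups, Vegfa ran from -0.15 to 0.082, Vegfc from -0.24 to 0.66, Pgf from -0.49 to 0.17, Kdr from -0.42 to 0.53, Nrp1 from -0.27 to 0.28 and Nrp2 from -0.10 to 0.19. In the interaction, Vegfc ran from -0.76 to 0.14, Pgf from -0.62 to 0.045 and Kdr from -0.60 to 0.35. A lone WT-TAC library was assumed to vary like the other groups.

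Relative to endothelial markers, the capillary list as reference turned Flt1 to 0.13 and Nrp1 to 0.16 for TAC in HCN4F, Kdr to 0.042 for TAC in WT, and Kdr to 0.10 and Nrp1 to 0.041 between the TAC groups. Pecam1 and Cdh5 as reference turned Kdr to 0.035 for TAC in WT and to 0.017 between the TAC groups. With 1 library left out, the ranges were -0.00528 to 0.13 for Flt1 and -0.40 to 0.38 for Kdr for TAC in WT, -0.045 to 0.13 for Kdr and -0.099 to 0.058 for Nrp1 for TAC in HCN4F, -0.16 to 0.013 for Kdr between the Sham groups, and -0.41 to 0.37 for Kdr and -0.27 to 0.11 for Nrp1 between the TAC groups. With 2 WT-TAC libraries, changes in WT hearts were estimated less precisely than in HCN4F hearts, and Vegfc and Pgf rested on the fewest counts.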
